A study of Mus with 2 samples.

Results

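Cortical nephrogenic-zone stroma is the loose connective tissue at the outer rim of the developing kidney, where it surrounds the nephron progenitor caps and the tips of the ureteric tree. It was selected here from single-cell RNA libraries of newborn (P0) mouse kidneys. Both libraries, replicates 1 and 2, were mutants of the genotype Rbpj c/- ; Foxd1cre/+, so both carried Foxd1cre/+ and both Rbpj alleles named there. Foxd1Cre is a recombinase expressed from the Foxd1 locus and was used to delete the floxed Rbpj allele in the renal interstitium. The controls named in the series design (Rbpj c/+ ; Foxd1cre/+) were not analysed here, and the effect of the deletion is therefore not measured. The labels do not say how many animals each library held. In the unmarked cortical stroma defined below, Xist, the X-inactivation RNA, stood at 1033 and 0 CPM (a gene's UMIs scaled to the total of its class) in replicates 1 and 2, and the Y-linked Ddx3y at 0 and 68.0 CPM. The libraries thus held animals of different sex, and sex and animal cannot be told apart between them. Each fit took up differences in level between the libraries, so these do not enter a p-value. Each p-value rests on how far the difference between classes of barcodes varied between the 2 libraries, with the spread partly shared across genes.

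A barcode, the tag shared by the RNA of 1 droplet, was kept with at least 2000 unique molecular identifiers (UMIs, counted RNA molecules) and at most 10% mitochondrial UMIs. Cortical stroma barcodes had at least 3 UMIs of the collagen genes Col1a2 and Col3a1 together and at least 1 of EYFP, an added fluorescent-protein feature whose source the labels do not name. They had no UMI of Epcam (epithelium) or Pecam1 (endothelium) and at most 1 of Top2a (dividing cells). They had at least 2 UMIs summed over Foxd1, Ntn1, Rspo3, Scx and Gdnf. Finally, they had at most 1 over the medullary genes Cck, Corin, Nts and Fzd10 and at most 1 over the adventitial fibroblast genes Clec3b and Dpt. This gave 754 barcodes of 11369 kept, 410 of 6220 in replicate 1 and 344 of 5149 in replicate 2. They made up 28.3% of the EYFP stroma of replicate 1 (exact binomial 95% interval 26.0 to 30.6%) and 29.3% of that of replicate 2 (26.7 to 32.0%), and these intervals overlap.

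Foxd1 encodes a transcription factor of the stromal progenitors, whose descendants include interstitial fibroblasts, pericytes and mesangial cells. The stroma signals to its neighbours: retinoic acid made there sustains Ret in the ureteric tips, the protocadherin Fat4 acts on the nephron progenitors, and R-spondins strengthen Wnt signals. Netrin-1, the product of Ntn1, and reelin, the product of Reln, are secreted proteins best known for guiding axons and migrating neurons. Rbpj encodes the nuclear partner that an activated Notch receptor joins on DNA to switch target genes on.

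The cortical stroma was set against 3 classes within each library. The remaining EYFP stroma held every other barcode that passed the collagen and EYFP gates, 1041 and 830 in replicates 1 and 2. Of these, the other clean stroma, 453 and 369 barcodes, passed every gate of the cortical stroma except that it had at most 1 UMI over Foxd1, Ntn1, Rspo3, Scx and Gdnf. The medullary stroma, 51 and 65 barcodes, had at least 2 UMIs over Cck, Corin, Nts and Fzd10 and at most 1 over the nephrogenic-zone genes. The libraries held 163405630 and 135436576 UMIs in all, and the cortical stroma sums 5342963 and 4217553. Median depth was 10369.5 and 9550 UMIs in cortical stroma and 8752 and 8587 in other clean stroma, so the cortical stroma was somewhat deeper, and the results were also computed with barcodes of 5000 to 20000 UMIs only and with each barcode thinned to 2000 UMIs. No cortical stroma barcode sequence occurred in both libraries.

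The label was then set against markers, and a share of the barcodes carried those of podocytes, the epithelial filter cells of the glomerulus. In replicate 1, 99 of 410 cortical stroma barcodes (24.1%, exact binomial 95% interval 20.1 to 28.6%) held at least 3 UMIs of Nphs1, which encodes nephrin of the slit diaphragm. In replicate 2, 62 of 344 did (18.0%, 14.1 to 22.5%). In the remaining EYFP stroma the shares were 4.61% and 4.10%. The podocyte-marked barcodes were deep and held 40.0% and 31.7% of the UMIs of the cortical stroma sums. All 9 cortical stroma barcodes over 50000 UMIs in replicate 1, and 3 of 4 in replicate 2, were podocyte-marked.

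**Figure D1:**
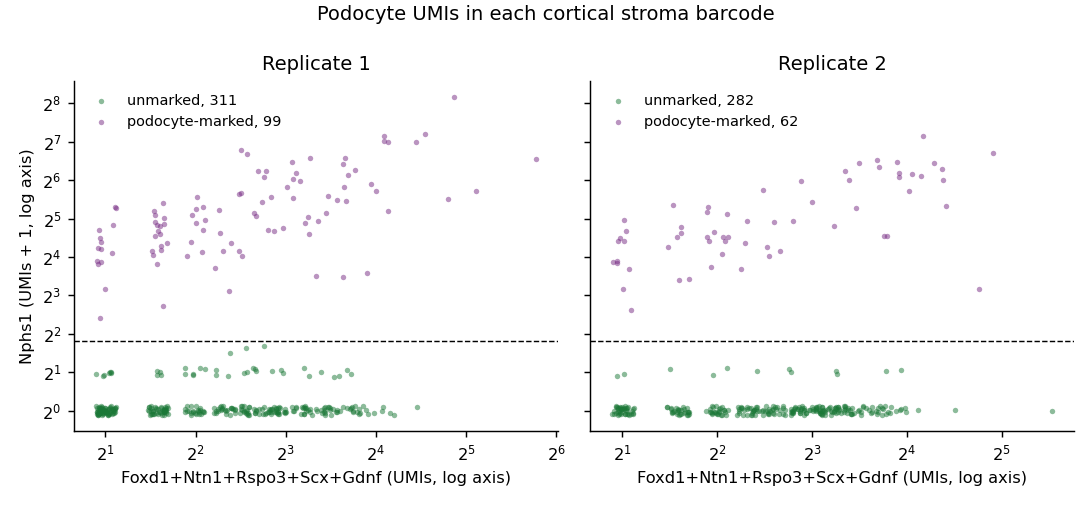
UMIs of Nphs1 (plus 1) against UMIs of the gate genes Foxd1, Ntn1, Rspo3, Scx and Gdnf in each cortical stroma barcode of replicates 1 and 2, both axes logarithmic, points spread slightly. The 99 and 62 podocyte-marked barcodes lie above the dashed line, which parts 3 UMIs or more from fewer, and the 311 and 282 unmarked ones lie below it, most of them at 0.

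The marked and unmarked barcodes passed the gate with different genes. Foxd1 stood at 280 and 260 CPM in the podocyte-marked barcodes of replicates 1 and 2, and at 185 and 182 CPM in the unmarked ones. Scx, a transcription factor best known from tendon, stood at 84.7 and 105 CPM in marked and at 120 and 162 CPM in unmarked barcodes. Ntn1 was at 0 and 4.49 CPM in marked and at 50.5 and 62.8 CPM in unmarked barcodes. Gdnf, the ligand that draws out the ureteric bud, was at 0.468 and 1.5 CPM in marked and at 155 and 134 CPM in unmarked barcodes. Foxd1 and Scx thus occurred in both kinds, and Ntn1 and Gdnf almost wholly in the unmarked ones. Podxl, the podocyte sialoprotein podocalyxin, was at 3098 and 3230 CPM in marked and at 4.99 and 3.82 CPM in unmarked barcodes. The marked barcodes also passed the collagen gate at lower levels, with medians of 6 and 8 UMIs against 17 and 17. Scx had a UMI in 25.8% and 30.8% of all kept barcodes (median depths 11987.5 and 12307 UMIs), and in 1.5% and 0% of macrophage-marked ones (at least 5 UMIs of C1qa, C1qb and C1qc and at most 1 of the collagens).

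All 6 podocyte genes tested, of which Nphs1 set the mark, were called higher in cortical stroma than in other clean stroma, by the quasi-likelihood test of edgeR, with p adjusted over all genes by Benjamini-Hochberg (called: adjusted p under 0.05 and the same direction in both libraries). In that comparison 29.2% of 11931 genes were called, 15.3% higher and 13.9% lower. The median log2 fold change of the podocyte list was 3.50, against -0.001 over all genes tested. With podocyte-marked barcodes left out of every class, an alternative added after seeing the data, 1 of 5 podocyte genes was called higher (Wt1, 1.25) and 2 lower (Podxl, -1.06, and Synpo, -1.51). Of the 1831 genes called higher with all barcodes, 400 (21.8%) were called higher without the marked ones, and they make up 54.6% of the 732 called then. A further 74 were called lower then. Of the 1655 called lower, 728 (44.0%) were called lower then, 75.0% of 971, and 6 were called higher. In that alternative 14.9% of 11393 genes were called, 6.42% higher and 8.52% lower. These shares are the background for each count of list genes against other clean stroma given here.

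The genes with the largest folds over other clean stroma were likewise those of the marked barcodes. Krt7, a keratin, stood at 122 and 102 CPM in cortical stroma and at 5.42 and 6.26 CPM in other clean stroma, a log2 fold change of 4.21 ± 0.16 (SE here and below; adjusted p 5.3e-10, edgeR's quasi-likelihood test). Crb2, an apical polarity protein, was at 52.0 and 41.0 CPM against 1.73 and 2.82 CPM. R3hdml was at 326 and 293 CPM against 17.3 and 18.1 CPM. Because of this mixture, levels below are given for all cortical stroma barcodes with the test, and for the unmarked ones as a description. In every test the classes were formed by a gate on the same barcodes, so genes that vary along with a gate gene can differ with it. A class sum does not tell fewer cells with an RNA from less RNA per cell.

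Among the unmarked barcodes the gate genes overlapped only in part. Foxd1 had a UMI in 75.6% and 77.0% of them, Gdnf in 68.2% and 68.4%, and Scx in 51.1% and 65.2%. Ntn1 had one in 29.9% and 32.6%, and Rspo3, which encodes an R-spondin, in 27.7% and 45.0%. At least 3 of the 5 genes were found together in 47.3% and 62.8% of the unmarked barcodes, and in 6.06% and 9.68% of the podocyte-marked ones. In the macrophage-marked barcodes, which should lack these genes, Foxd1 had a UMI in 1.5% and 0%, at median depths of 9522 and 10171.5 UMIs against 10172 and 9353 in the unmarked cortical stroma. Rspo3 differed between the libraries: its levels were 45.5 and 112 CPM, 2.45-fold apart (exact conditional 95% interval 2.01 to 3.0, counting error only). These levels were set by the gate and carry no test.

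**Figure D2:**
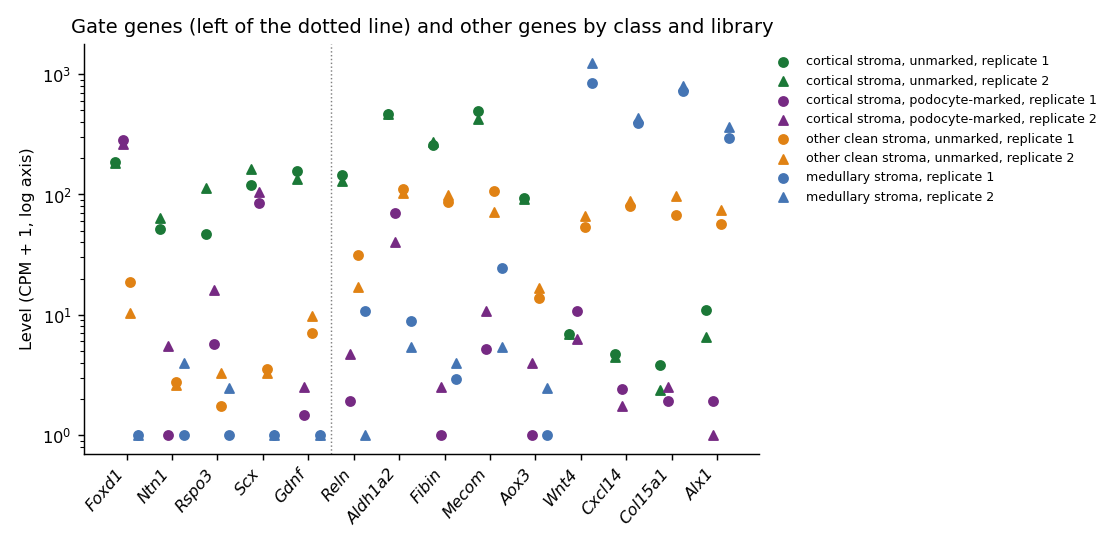
Levels (CPM plus 1, logarithmic axis) of the 5 gate genes, left of the dotted line, and of 9 genes outside the gate in 4 classes, with circles for replicate 1 and triangles for replicate 2. Reln, Aldh1a2, Fibin, Mecom and Aox3 are highest in unmarked cortical stroma in both libraries, and Wnt4, Cxcl14, Col15a1 and Alx1 are highest in medullary stroma.

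Reln was the marker of this stroma that the gate did not use. It stood at 86.5 and 89.4 CPM in all cortical stroma barcodes and at 143 and 129 CPM in the unmarked ones. In the other clean stroma it stood at 29.8 and 15.3 CPM, and in the podocyte-marked barcodes at 0.936 and 3.74 CPM. The classes did not overlap, and Reln was higher in cortical than in other clean stroma by 1.87 ± 0.20 on the log2 scale (adjusted p 8.4e-06, edgeR's quasi-likelihood test). Against the remaining EYFP stroma, at 36.2 and 25.8 CPM, the log2 fold change was 1.54 ± 0.13 (adjusted p 5.5e-04). With each barcode thinned at random to 5000 UMIs, Reln had a UMI in 47.1% and 40.7% of unmarked cortical stroma barcodes and in 11.3% and 5.81% of other clean stroma. It had one in 0 of 107 and 0 of 71 macrophage-marked barcodes. Thinning left out 3 and 7 shallower barcodes of the unmarked cortical stroma and 43 and 47 of the other clean stroma. The unthinned shares were 64.6% and 60.3% against 16.3% and 10.1%. Near-empty droplets, those of 10 to 100 UMIs, held Reln at 75.9 and 52.0 CPM, above its level in other clean stroma. Reln lies on mouse chromosome 5 from 21884454 to 22344705 (mm10, whole gene).

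Reln followed the gate in steps. Unmarked barcodes with 0 gate UMIs, outside, had Reln at 14.9 and 11.7 CPM, and those with exactly 1, just outside, at 72.2 and 31.0 CPM. Just inside, barcodes with exactly 2 gate UMIs, 72 and 43 in number, had 108 and 61.2 CPM. Those with at least 5 had 182 and 152 CPM. In replicate 1 the step across the threshold, from 1 to 2 UMIs, was smaller than that from 0 to 1, and in replicate 2 it was larger. Aldh1a2 went from 162 and 174 CPM at 1 UMI to 292 and 247 CPM at 2 UMIs and 584 and 525 CPM at 5 or more. Igfbp3 was lower at 5 UMIs or more, at 120 and 102 CPM, than at 0 UMIs, at 520 and 505 CPM. Between these it was at 597 and 380 CPM at 1 UMI and at 414 and 394 CPM at 2, so across the threshold it was lower in replicate 1 and not in replicate 2. These values describe the gate and carry no test.

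**Figure D3:**
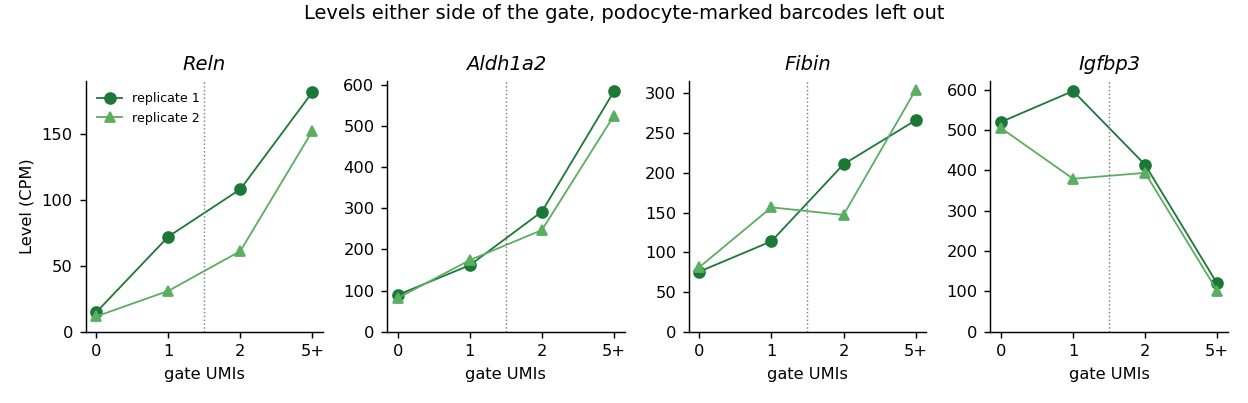
Levels (CPM, linear axes from 0) of Reln, Aldh1a2, Fibin and Igfbp3 in unmarked barcodes with 0, 1, 2 or at least 5 gate UMIs, with the gate at the dotted line, circles for replicate 1 and triangles for replicate 2. Reln climbs from 14.9 and 11.7 CPM at 0 UMIs to 182 and 152 CPM at 5 or more, and Igfbp3 ends at 120 and 102 CPM.

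Within the unmarked barcodes, Reln was set against each gate gene as a description with no test, since the gate used these genes. Among unmarked barcodes with a Ntn1 UMI, 78.5% and 71.7% had a Reln UMI, against 58.7% and 54.7% of those without. With a Foxd1 UMI the shares were 68.9% and 63.1%, against 51.3% and 50.8%. With a Scx UMI they were 74.2% and 66.3%, against 54.6% and 49.0%. With a Gdnf UMI they were 70.3% and 67.4%, against 52.5% and 44.9%. The exact binomial 95% intervals with and without the gene overlapped for Foxd1 in both libraries and for Ntn1 and Scx in replicate 2. For Gdnf they overlapped in neither library. With Rspo3 the shares were 66.3% and 58.3%, against 64.0% and 61.9%, so Rspo3 did not separate barcodes by Reln in a like direction in both libraries. Median depths with and without each gene were between 9139 and 10555 UMIs.

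The wider list of nephrogenic-zone stroma genes, 15 outside the gate, was mixed: 5 were called higher and 5 lower than in other clean stroma, with a median log2 fold change of -0.14. Without podocyte-marked barcodes 9 were called higher and 4 lower, with a median of 0.51 against 0.009 over all genes. Fibin, a secreted protein, stood at 153 and 187 CPM against 84.3 and 98.9 CPM, a log2 fold change of 0.83 ± 0.09 (adjusted p 7.7e-06, edgeR's quasi-likelihood test). In the unmarked barcodes it was at 255 and 273 CPM. With at most 5% mitochondrial UMIs the sign turned, to -0.05. The podocyte-marked barcodes had median mitochondrial shares of 3.52% and 3.97% against 5.23% and 5.58% in the unmarked ones.

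Sall1, a zinc-finger transcription factor of kidney progenitors, was at 57.8 and 63.3 CPM in cortical stroma and at 13.8 and 9.39 CPM in other clean stroma (2.29 ± 0.17, adjusted p 2.1e-07, edgeR's quasi-likelihood test). It was at similar levels in marked (62.3 and 65.1 CPM) and unmarked barcodes (54.9 and 62.5 CPM). Meis1, a homeobox gene of the stroma, stood at 231 and 258 CPM against 256 and 264 CPM and was not called (-0.15 ± 0.09, adjusted p 0.25). Its sign changed with the setting. Meis1 was called higher without podocyte-marked barcodes (0.51) and with barcodes of 5000 to 20000 UMIs only (0.30). It was called lower at most 5% mitochondrial UMIs (-0.69) and without the EYFP gate (-0.32). In the unmarked barcodes it was at 376 and 370 CPM. Fat4 was likewise not called (0.21 ± 0.11, adjusted p 0.16) but was called higher without podocyte-marked barcodes (0.88), with those of 5000 to 20000 UMIs only (0.67) and without those over 50000 UMIs (0.38), and its sign turned at most 5% mitochondrial UMIs (-0.12), with 127 and 119 CPM in unmarked and 1.40 and 3.74 CPM in marked barcodes. Of the lower genes, Tcf21, a transcription factor shared by stroma and podocytes, stood at 411 and 374 CPM against 634 and 581 CPM (-0.69 ± 0.09, adjusted p 4.0e-05), a call lost at most 5% mitochondrial UMIs (-0.21). It was at 206 and 162 CPM in the unmarked and 718 and 831 CPM in the marked barcodes. Dchs1, which encodes the Fat4 ligand, was at 16.7 and 28.7 CPM against 40.7 and 45.7 CPM (-1.03 ± 0.16, adjusted p 2.3e-04), a call lost without podocyte- and progenitor-marked barcodes (-0.45; the latter had at least 3 UMIs of the nephron progenitor genes Six2 and Cited1).

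Of 12 retinoic acid genes tested, 4 were called higher than in other clean stroma (Aldh1a1, Aldh1a2, Crabp1 and Crabp2) and 4 lower (Rdh10, Rara, Rarg and Ecm1; median -0.35). Without marked barcodes 4 of 11 were called higher and 1 lower (median 0.04). Aldh1a1 had only 4 and 1 UMIs in the unmarked barcodes (1.25 and 0.347 CPM). Aldh1a2, the main retinoic acid synthesising enzyme of the embryo, stood at 305 and 331 CPM against 109 and 103 CPM (1.52 ± 0.09, adjusted p 2.9e-08, edgeR's quasi-likelihood test), and at 463 and 467 CPM in the unmarked barcodes. After thinning it had a UMI in 78.9% and 80.4% of unmarked cortical stroma and in 28.6% and 26.8% of other clean stroma, against 1.87% and 5.63% of macrophage-marked barcodes. The retinoic acid binding proteins Crabp1 and Crabp2 were low but higher than in other clean stroma: Crabp2 was at 13.1 and 20.9 CPM against 0.986 and 3.13 CPM (3.01 ± 0.33, adjusted p 9.7e-06). The call of Crabp1 was lost with DESeq2 (adjusted p 0.18). Rdh10, the retinol dehydrogenase that acts before Aldh1a2, was lower, at 29.0 and 28.0 CPM against 42.9 and 42.9 CPM (-0.65 ± 0.13, adjusted p 0.0019), a call lost with DESeq2 (adjusted p 0.16). Aldh1a2 lies on mouse chromosome 9 from 71215789 to 71296243 (mm10).

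Growth factors that act on the ureteric tips, progenitors and vessels formed the next group, with 10 of 27 genes called higher and 9 lower (median -0.26), where 15.3% and 13.9% of all genes were. Without marked barcodes 9 of 25 were called higher and 8 lower (median -0.19), where 6.42% and 8.52% of all genes were. Hgf, the ligand of Met, was at 12.5 and 18.0 CPM against 8.13 and 4.69 CPM (1.12 ± 0.30, adjusted p 0.012, edgeR's quasi-likelihood test), a call lost with DESeq2 (adjusted p 0.27), without the EYFP gate (0.72) and at most 5% mitochondrial UMIs (0.16). Pdgfc, a ligand of the PDGF receptors, was at 28.3 and 33.7 CPM against 5.67 and 10.3 CPM (1.92 ± 0.20, adjusted p 6.4e-06). Tgfb3 was at 28.4 and 44.3 CPM against 11.3 and 16.9 CPM (1.30 ± 0.17, adjusted p 4.6e-05), a call lost at that mitochondrial limit (0.55). All 3 ligands were lower in the marked than in the unmarked barcodes, at no more than 6.74 CPM. Gfra1, the Gdnf co-receptor, was at 13.7 and 16.8 CPM against 1.97 and 1.56 CPM (2.98 ± 0.35, adjusted p 1.9e-05).

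On the lower side, Bmp4, which restrains ureteric budding, stood at 60.6 and 45.5 CPM against 85.8 and 75.7 CPM (-0.67 ± 0.11, adjusted p 3.4e-04, edgeR's quasi-likelihood test). Angpt1, the Tie2 ligand that steadies vessels, was at 11.2 and 9.01 CPM against 35.3 and 47.9 CPM (-2.06 ± 0.19, adjusted p 1.5e-06). Bmp7 and Vegfa belonged to the marked barcodes. Bmp7, a progenitor survival factor, was called higher (3.51 ± 0.17, adjusted p 3.8e-09), with 319 and 292 CPM in marked and 4.68 and 4.16 CPM in unmarked barcodes. Vegfa, the endothelial growth factor, was called higher by 2.57 ± 0.14 (adjusted p 6.2e-09), with 737 and 680 CPM in marked and 14.0 and 14.2 CPM in unmarked barcodes. Its fold without the marked barcodes was of the other sign, -0.72.

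Of 20 Wnt pathway genes tested, 10 were called lower and 4 higher (median -1.07), and without marked barcodes 10 lower and 3 higher (median -0.84). Wnt4, which drives progenitors into epithelium and is made by medullary stroma, stood at 7.49 and 5.69 CPM against 51.5 and 63.5 CPM in other clean stroma (-3.14 ± 0.20, adjusted p 3.5e-08, edgeR's quasi-likelihood test). Among negative-feedback targets of Wnt signalling, Nkd1 and Axin2 were called lower. Nkd1 was at 24.0 and 24.4 CPM against 56.5 and 61.9 CPM (-1.35 ± 0.12, adjusted p 1.7e-06), and Axin2 at 9.92 and 9.01 CPM against 20.7 and 16.9 CPM (-1.06 ± 0.22, adjusted p 0.0019). Znrf3 was called higher, at 14.4 and 13.8 CPM against 7.89 and 8.76 CPM (0.70 ± 0.24, adjusted p 0.039), but its sign turned without podocyte-marked barcodes (-0.10) and 5 other alternatives lost the call. Rspo1, the R-spondin outside the gate, was higher, at 8.61 and 22.5 CPM against 2.96 and 6.88 CPM (1.58 ± 0.26, adjusted p 4.2e-04). That call was lost with DESeq2 (adjusted p 0.071), at most 5% mitochondrial UMIs (1.30) and without podocyte- and progenitor-marked barcodes (0.65). Like Rspo3 it was higher in replicate 2, and against the remaining EYFP stroma, at 42.7 and 41.5 CPM, it was lower (-1.48 ± 0.29, adjusted p 0.012). That sign turned without barcodes over 50000 UMIs (0.37) and with those of 5000 to 20000 UMIs only (1.17), and the call was lost on thinning to 2000 UMIs (-0.15).

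**Figure D4:**
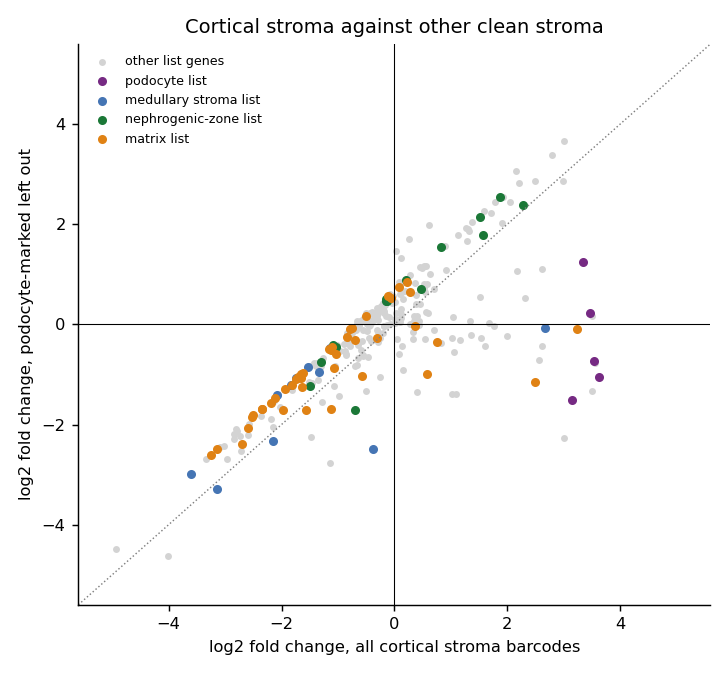
Log2 fold change of cortical over other clean stroma for genes of the lists outside the gate, with all barcodes (horizontal) and with podocyte-marked barcodes left out of every class (vertical), and the line of equal values dotted. The 5 podocyte genes tested in both lie between 3.15 and 3.63 on the horizontal axis and between -1.51 and 1.25 on the vertical one, while most matrix and medullary genes lie below 0 on both.

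Most genes of deeper stromal identities were lower. Of 11 medullary stroma genes tested, 9 were called lower and 1 higher than in other clean stroma (median -1.74), and 10 lower and 0 higher without marked barcodes. The exception, Cdkn1c, a cell cycle inhibitor, is a gene of podocytes too. Alx1, a homeobox gene, stood at 6.36 and 3.79 CPM against 54.2 and 70.7 CPM (-3.61 ± 0.20, adjusted p 1.0e-08, edgeR's quasi-likelihood test). Penk, the enkephalin precursor, was at 164 and 137 CPM against 587 and 628 CPM (-2.07 ± 0.11, adjusted p 6.2e-09). Of 10 interstitial stroma genes, 7 were called lower and 1 higher (median -2.0). Their summed level was 1228.5 and 1403.4 CPM against 1968.6 and 1769.5 CPM. Among unmarked barcodes it was 2005 and 2027 CPM against 2011 and 1833 CPM, so the sum was not lower there in both libraries. Igfbp5 alone held 1333 and 1463 CPM of the unmarked cortical sum. Cxcl14, a chemokine, was at 2.81 and 2.61 CPM against 77.2 and 84.5 CPM (-4.93 ± 0.17, adjusted p 2.8e-10). Igfbp3, a binding protein for insulin-like growth factors, was at 133 and 110 CPM against 530 and 460 CPM (-2.09 ± 0.19, adjusted p 1.3e-06), a call that DESeq2 did not make (-2.08, adjusted p 0.073). Its relative Igfbp5 was the gene called higher, at 802 and 1015 CPM against 369 and 159 CPM (1.77 ± 0.24, adjusted p 6.4e-05).

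Set directly against medullary stroma, cortical stroma had 20.5% of 11931 genes called, 1225 higher (10.3%) and 1226 lower (10.3%). Without marked barcodes it had 19.3% of 11393 called, 9.51% higher and 9.83% lower. Wnt4 was at 848 and 1247 CPM in medullary stroma, a log2 fold change of -7.32 ± 0.17 for cortical over medullary (adjusted p 2.7e-12, edgeR's quasi-likelihood test). Col15a1, a basement-membrane collagen, was at 2.06 and 1.42 CPM against 719 and 802 CPM (-8.76 ± 0.18, adjusted p 1.4e-12). Aldh1a2 ran the other way, with 7.80 and 4.41 CPM in medullary stroma (5.68 ± 0.25, adjusted p 1.7e-09). Fibin did too, with 1.95 and 2.94 CPM there (6.0 ± 0.31, adjusted p 6.9e-09). For Col15a1 and Cxcl14, other clean stroma lay between cortical and medullary stroma in both libraries.

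Extracellular matrix genes were low. Of 44 tested, 34 were called lower and 6 higher than in other clean stroma (median -1.14), and 30 lower and 4 higher without marked barcodes (median -1.02). The collagen gate bounds Col1a2 and Col3a1 from below only, and equally in both classes. Fn1, fibronectin, stood at 294 and 275 CPM against 1284 and 1067 CPM (-2.11 ± 0.13, adjusted p 3.7e-08, edgeR's quasi-likelihood test). Col14a1, a fibril-associated collagen, was at 50.3 and 56.9 CPM against 484 and 491 CPM (-3.25 ± 0.11, adjusted p 2.7e-10). Dcn, the proteoglycan decorin, was at 84.0 and 80.1 CPM against 441 and 521 CPM (-2.60 ± 0.10, adjusted p 5.6e-10). Tnc, tenascin-C, was at 27.0 and 36.8 CPM against 158 and 147 CPM (-2.35 ± 0.13, adjusted p 7.45e-09). The same 4 genes were lower in unmarked barcodes too, for example Fn1 at 469 and 397 CPM. Col4a4, a collagen of the glomerular basement membrane, was higher in both kinds: it was at 1203 and 1159 CPM in marked and 133 and 133 CPM in unmarked cortical stroma, against 16.4 and 22.5 CPM in unmarked other clean stroma.

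Genes of pericytes, smooth muscle and mesangium, the contractile descendants of the stroma, were lower or not called: 13 of 15 were called lower and 0 higher (median -1.48), and 8 lower and 0 higher without marked barcodes. Itga8, the integrin chain of mesangial cells, stood at 56.3 and 53.6 CPM against 299 and 294 CPM (-2.50 ± 0.13, adjusted p 6.3e-09, edgeR's quasi-likelihood test). Des, desmin, was at 13.5 and 11.1 CPM against 68.0 and 75.4 CPM (-2.59 ± 0.16, adjusted p 2.8e-08). Acta2, smooth-muscle actin, was at 483 and 378 CPM against 1589 and 1347 CPM (-1.83 ± 0.17, adjusted p 1.7e-06). Scx, which was part of the gate, is known from tendon, and the tendon and ligament list was therefore examined. Of its 10 genes tested, 1 was called higher and 6 lower. The one higher was Mkx, a homeobox gene of tendon, at 8.24 and 6.40 CPM against 3.94 and 1.25 CPM (1.37 ± 0.41, adjusted p 0.021), a call lost with DESeq2 (adjusted p 0.39) and without the library block (adjusted p 0.053). Tnmd, Kera and Comp were too low to test.

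In the list of stromal transcription factors, of 35 tested, 9 were called higher and 15 lower (median -0.35), and 9 higher and 12 lower without marked barcodes. Of its 8 Hox genes, several of which mark the metanephric field, 6 were called lower, while Hoxa9 (0.01) and Hoxc10 (0.03) were not called, and Hoxc10 was called higher without the EYFP gate (0.33). Hoxd11 was at 95.8 and 113 CPM against 232 and 256 CPM (-1.29 ± 0.10, adjusted p 3.4e-07, edgeR's quasi-likelihood test), and at 139 and 153 CPM in unmarked barcodes. Hoxd10 was at 32.4 and 26.8 CPM against 81.6 and 75.4 CPM (-1.46 ± 0.12, adjusted p 4.5e-07). Hoxa11 was at 28.8 and 29.4 CPM against 66.6 and 66.9 CPM (-1.26 ± 0.12, adjusted p 1.7e-06). Mecom, a zinc-finger transcription factor outside the lists, ran the other way, at 298 and 292 CPM against 104 and 69.1 CPM (1.71 ± 0.14, adjusted p 4.2e-07). In the remaining EYFP stroma Mecom was at 164 and 128 CPM. Aox3, an aldehyde oxidase, was at 55.8 and 62.6 CPM against 12.6 and 15.0 CPM (2.04 ± 0.15, adjusted p 2.2e-07). Igfbp6 was at 73.0 and 80.4 CPM against 4.68 and 6.88 CPM (3.68 ± 0.18, adjusted p 3.4e-09). These 3 were among the largest folds when podocyte-marked barcodes were left out, and that ranking was seen before they were chosen.

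Rbpj, the targeted gene, was low and not called in any of the 3 comparisons as fitted. It stood at 34.3 and 37.0 CPM in cortical stroma, from 183 and 156 UMIs, with exact Poisson 95% intervals of 29.5 to 39.6 and 31.4 to 43.3 CPM. It stood at 28.1 and 21.6 CPM in other clean stroma (0.44 ± 0.16, adjusted p 0.055, edgeR's quasi-likelihood test) and at 33.5 and 30.5 CPM in the remaining EYFP stroma (0.18 ± 0.11, adjusted p 0.28). In medullary stroma it was at 35.1 and 23.5 CPM (0.23 ± 0.27, adjusted p 0.61). Against other clean stroma Rbpj was called higher in cortical stroma at most 5% mitochondrial UMIs (0.74, adjusted p 0.0031), without the EYFP gate (0.38, adjusted p 0.040) and without Scrublet doublets (0.47, adjusted p 0.029). Without podocyte-marked barcodes it was not called (0.07, adjusted p 0.87). Without them its sign turned against the remaining stroma (-0.18) and medullary stroma (-0.23), where it also turned with barcodes of 5000 to 20000 UMIs only (-0.08). Against the remaining stroma Rbpj was called higher without the EYFP gate (0.27, adjusted p 0.029). Podocyte-marked barcodes had 47.7 and 65.9 CPM and unmarked ones 25.3 and 23.6 CPM, against 27.5 and 19.5 CPM in unmarked other clean stroma. Reads from 3' ends cannot separate intact Rbpj transcripts from ones missing a floxed exon. Near-empty droplets had Rbpj at 87.7 and 87.1 CPM.

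Barcodes that passed every gate but EYFP numbered 118 and 101, of which 45 and 51 were not podocyte-marked. In the latter Rbpj stood at 49.4 and 62.3 CPM. They also differed in other genes. Reln was at 22.2 and 21.2 CPM, Aldh1a2 at 166 and 133 CPM and Rspo3 at 133 and 206 CPM, so apart from Rspo3 they were below the unmarked cortical stroma.

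Of 13 Notch pathway genes tested, Rbpj among them, 2 were called higher and 3 lower than in other clean stroma (median 0.14), where 29.2% of all genes were called. Without marked barcodes 1 was called higher and 1 lower, where 14.9% of all genes were. Hes1, a transcriptional repressor that Notch and other pathways induce, stood at 122 and 115 CPM against 83.3 and 75.1 CPM (0.52 ± 0.14, adjusted p 0.012, edgeR's quasi-likelihood test), and at 138 and 124 CPM in unmarked barcodes. Its call was lost with DESeq2 (adjusted p 0.42), without the library block (adjusted p 0.070) and at most 5% mitochondrial UMIs (0.20). Jag1, a Notch ligand, was at 4.68 and 4.03 CPM against 7.89 and 10.0 CPM (-1.07 ± 0.30, adjusted p 0.017), but 6 alternatives lost this call, with log2 fold changes between -0.70 and -1.18. Notch3, the receptor of mural cells, was at 12 and 9.25 CPM against 20.7 and 20.6 CPM (-1.01 ± 0.21, adjusted p 0.0023), a call lost with DESeq2 (adjusted p 0.057) and without podocyte-marked barcodes (-0.42). Hey1, a repressor that Notch induces, was at 13.1 and 9.72 CPM against 4.19 and 3.44 CPM (1.52 ± 0.33, adjusted p 0.0031), a call lost without podocyte-marked barcodes (0.55), with those of 5000 to 20000 UMIs only (0.57) and with DESeq2 (adjusted p 0.15). The receptor Notch1 was at 26.2 and 29.4 CPM against 37.7 and 33.2 CPM (-0.43 ± 0.15, adjusted p 0.043), a call lost under 11 alternatives and at -0.004 without podocyte-marked barcodes, and its sign turned without progenitor-marked ones too (0.003). Notch2, the other main kidney receptor, was not called (-0.29 ± 0.15, adjusted p 0.18), and its sign turned on thinning to 2000 UMIs (0.05).

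Guidance genes beyond Ntn1 gave 9 of 23 called higher and 6 lower (median 0.34), and 2 of 22 higher and 5 lower without marked barcodes (median -0.10). The netrin receptor Dcc had no UMI in cortical stroma. Neo1, its relative, was at 79.0 and 63.5 CPM against 48.8 and 55.1 CPM (0.41 ± 0.14, adjusted p 0.040, edgeR's quasi-likelihood test), with 57.7 and 52.4 CPM in unmarked barcodes. Its call was lost under 10 alternatives. Robo2, a Slit receptor, was called higher, at 410 and 362 CPM against 148 and 140 CPM (1.36 ± 0.09, adjusted p 4.3e-08), with 887 and 883 CPM in marked and 92.3 and 120 CPM in unmarked barcodes. Its sign turned without the marked ones (-0.21). For Reln itself, the receptor Vldlr was at 15.9 and 16.6 CPM against 28.8 and 32.5 CPM (-0.97 ± 0.16, adjusted p 3.1e-04), a call lost on thinning to 2000 UMIs (adjusted p 0.11) and without podocyte- and progenitor-marked barcodes (-0.44). Against other clean stroma the receptor Lrp8 was too low to test and the adaptor Dab1 was not called (adjusted p 0.086). Against the remaining EYFP stroma, where 15.0% of all genes were called lower, Vldlr (-0.91), Dab1 (-1.29) and Lrp8 (-2.35) were each called lower. All 3 calls were lost with DESeq2, those of Dab1 and Lrp8 also without the library block, and that of Dab1 with 3 further settings, its sign turning without barcodes over 50000 UMIs (0.015). The call of Lrp8 was lost without the EYFP gate too (-1.67).

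Against the remaining EYFP stroma, 27.3% of 13312 genes were called, 12.3% higher and 15.0% lower. The gates on Top2a, Epcam and Pecam1 act on this contrast, so dividing, epithelial and endothelial genes differ by construction: 20 of 25 cell cycle genes were called lower. The largest folds upward were again those of the marked barcodes. H2-Q7, a class I histocompatibility gene, was at 276 and 341 CPM in cortical stroma and at 22.2 and 50.3 CPM in the remaining stroma (3.22 ± 0.20, adjusted p 1.5e-04, edgeR's quasi-likelihood test), but at 1.56 and 2.43 CPM in unmarked barcodes. Without marked barcodes 21.2% of 12756 genes were called, 8.65% higher and 12.6% lower. Against other clean stroma, which passed the same Top2a gate, 1 cell cycle gene was called higher and 2 lower (median -0.21). Mki67, a proliferation marker, was at 26.6 and 26.1 CPM against 30.8 and 36.0 CPM there (-0.39 ± 0.15, adjusted p 0.062, edgeR's quasi-likelihood test), but was called lower with a gate of at least 3 UMIs (-0.72) and without the EYFP gate (-0.66). Its sign turned with barcodes of 5000 to 20000 UMIs only (0.11), without podocyte-marked barcodes (0.26) and without progenitor-marked ones too (0.29). Barcodes that failed only the Top2a gate numbered 156 and 124.

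Markers of other cell types were followed as well. Of the nephron progenitor list, 5 of 7 genes were called higher and 1 lower than in other clean stroma with all barcodes, where 15.3% and 13.9% of all genes were. Cited1 was at 28.7 and 79.1 CPM and Six2 at 6.86 and 23.3 CPM in unmarked barcodes, against 3.53 and 6.51 CPM and 1.76 and 3.58 CPM in unmarked other clean stroma. In 7 and 10 unmarked barcodes there were at least 3 UMIs of both together, and these held 80.7% and 94.2% of the Six2 and Cited1 UMIs. The call of Cited1 was lost with barcodes of 5000 to 20000 UMIs only (1.48), where the libraries differed in direction, and without podocyte- and progenitor-marked barcodes (0.40), a setting that removes barcodes by Six2 and Cited1 themselves. The call of Six2 was lost with barcodes of 5000 to 20000 UMIs only (0.89) and with DESeq2 (adjusted p 0.081). Hemoglobin was similarly concentrated: 7 and 3 barcodes held 84.8% and 94.6% of its 6774 and 10320 UMIs. In the unmarked barcodes the summed macrophage list stood at 53.6 and 19.4 CPM and the endothelium list at 51.8 and 40.9 CPM. Unmarked other clean stroma had 66.7 and 15.3 CPM of the former and 89.4 and 81.4 CPM of the latter. With all barcodes the endothelium list was at 543 and 474 CPM in cortical and 113 and 120 CPM in other clean stroma. In the podocyte-marked barcodes it was at 1279 and 1407 CPM. The glia list stood at 5.93 and 5.21 CPM in the unmarked barcodes, with Sox10 and Fabp7 at 0. Their part in the results was not tested beyond the fit without progenitor-marked barcodes.

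The adventitial gate removed 17 and 18 barcodes that had passed the earlier gates. The adventitial class as a whole, 34 and 31 barcodes of EYFP stroma, held Foxd1 at 153 and 91.6 CPM and Ntn1 at 65.2 and 114 CPM, next to 185 and 182 CPM and 50.5 and 62.8 CPM in the unmarked cortical stroma. It held Scx and Gdnf at 0 to 3.16 CPM, Reln at 0 and 3.16 CPM and Rspo3 at 0 and 15.8 CPM.

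Within the unmarked cortical stroma the libraries were close. Among the 4694 genes that averaged 30 CPM or more, 10 were more than 2-fold higher in replicate 1 and 5 in replicate 2. Rgs5, a pericyte gene, was at 304 and 130 CPM (ratio of replicate 2 to replicate 1 of 0.428, exact conditional 95% interval 0.379 to 0.483), and Clca3a1, an interstitial gene, at 58.3 and 24.6 CPM (0.422, 0.317 to 0.558). Reln was at a ratio of 0.900 (0.783 to 1.03). Splitting the unmarked barcodes by Foxd1 gave 235 and 217 with a UMI and 76 and 65 without. Fibin was at 227 and 245 CPM with Foxd1 and 344 and 366 CPM without, and Aldh1a2 at 450 and 456 CPM against 503 and 503 CPM. Neither was lower without a Foxd1 UMI, in barcodes that had passed through the other gate genes, whereas Reln was, at 161 and 138 CPM with Foxd1 and 88.5 and 101 CPM without.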

How the data were processed

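Single-cell RNA was measured in 2 libraries of newborn mutant kidney. Per the labels' protocols, 10x Chromium droplets were used and cDNA 3' ends sequenced. The deposited values are raw UMI counts per gene and barcode in unfiltered matrices. The file headers name Cell Ranger 4 as their writer, while the submitters' processing notes name Cell Ranger 6.0.1 and mm10. How reads of overlapping or antisense genes were assigned is not given in the sources used here.

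Barcodes were gated as the report states, and doublets were not removed, except in an alternative with Scrublet (scanpy 1.11.5), which removed 310 (4.98%) and 212 (4.12%) barcodes, 9 and 12 of them cortical stroma. UMIs were summed per library and class and tested with edgeR 4.0.16 (R 4.3.3): TMM, filterByExpr, quasi-likelihood F test, library as a block, Benjamini-Hochberg over all genes tested. The block was used because both classes come from the same library. The fits against other clean and medullary stroma share 1 fit of 6 sums, and so the cortical stroma sums. The 17 gate genes carry no test. Some genes are not reported here and were left out of the lists and the podocyte mark. The scripts were tested on simulated data. Alternatives are given in the closing section. The replicate numbers only name the libraries, in record order.

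The members and lists were chosen with earlier results of these data known. Genes named are those of 25 lists and the 10 largest called folds per direction at 30 CPM or more in the higher class, leaving out gate, sex-linked, mitochondrial, ribosomal and histone genes; Mecom, Aox3 and Igfbp6 come from the same rule without podocyte-marked barcodes. Symbols were matched to RefSeq genes of GRCm38.p6 for positions (439 of 443). Intervals cover counting error only. CPM scale a gene's UMIs to all UMIs of its class and library.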

Additional observations from a re-analysis of the deposited data

How the results depend on the processing

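With 1 library left out, the share of EYFP stroma in cortical stroma ranged from 28.3 to 29.3%, and a count of called genes has no such value, since 1 library leaves no residual degrees of freedom. The share was 29.8% at 5000 UMIs, 31.3% at most 5% mitochondrial, 23.5% with 3 gate UMIs, 29.7% without the EYFP gate, 30.5% with 5000 to 20000 UMIs, and 29.7% without Scrublet doublets. It was 25.01% without podocyte-marked barcodes and 24.96% without progenitor-marked ones too, 2 settings added after seeing the data. Each count of calls is the total of its own fit. Against the remaining EYFP stroma it was 3636 as reported, 1487 thinned to 2000 UMIs and 1440 with DESeq2. Against other clean stroma it was 3486, and 2047 with 5000 to 20000 UMIs, 1703 without podocyte-marked barcodes, 1625 without progenitor-marked ones too, 1159 thinned and 1371 with DESeq2. Against medullary stroma it was 2451, and 1205 at most 5% mitochondrial, 857 thinned and 1576 with DESeq2. No replicate block gave 2935, 2852 and 2356 calls in the same order.

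Signs turned, with the cause not tested. Without podocyte-marked barcodes, and then without progenitor-marked ones too, the log2 fold change over other clean stroma was -1.06 and -1.01 for Podxl, -1.51 and -1.53 for Synpo, 0.51 and 0.58 for Meis1, -0.72 and -0.82 for Vegfa, -0.081 and -0.013 for Cdkn1c, -0.21 and -0.34 for Robo2, -0.10 and -0.30 for Znrf3, 0.26 and 0.29 for Mki67 and 0.016 and 0.099 for Rgs5. In the second setting Bmp7 was at -0.19 and Notch1 at 0.0027. Over the remaining EYFP stroma they were -1.75 and -1.81 for H2-Q7 and -0.56 and -0.63 for Thsd7a, and in the first setting -1.22 for Rhpn1 and -0.069 for Rab3b. At most 5% mitochondrial turned Fibin to -0.048. With 5000 to 20000 UMIs Meis1 was at 0.30 and Rspo1, over the remaining stroma, at 1.17. Without barcodes over 50000 UMIs Rspo1 was at 0.37 and Dab1 at 0.015 there. Genes not called also turned: Rbpj to -0.18 and -0.13 over the remaining and -0.23 and -0.27 over medullary stroma without podocyte-marked and then progenitor-marked barcodes, Fat4 to -0.12 at most 5% mitochondrial, and Notch2 to 0.05 and Meis1 to 0.30 on thinning. With 5000 to 20000 UMIs Mki67 was at 0.11 and Rbpj over medullary stroma at -0.08, without barcodes over 50000 UMIs Meis1 was at 0.02, and Hoxa9 and Hoxc10, near 0, varied in sign.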
